A study of Mus musculus with 2 samples.

Results

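Stromal nuclei of the fractured periosteum and its hematoma, collected at day 1, were chosen by 6 stromal marker genes, counted in unique molecular identifiers (UMIs, each standing for 1 captured RNA molecule). A barcode was selected on at least 2 UMIs summed over Col1a1, Col1a2, Col3a1, Col5a1, Postn and Pdgfra, and on more of these than of 8 immune marker genes (Ptprc, Dock2, Vav1, Adgre1, Csf3r, S100a8, S100a9 and Cd84). Quality limits were 200 to 5000 genes, under 5% mitochondrial UMIs and under 2.5% ribosomal protein UMIs. The mitochondrial limit is wider than the one in the methods of the study. At that stricter limit, 0.5%, 44 of the nuclei selected here were kept and the rest fell outside. The limits on debris were under 8% of UMIs from 6 muscle fibre genes (Ttn, Neb, Ckm, Myh1, Myh4 and Acta1) and under 5% from the repeat-derived genes Gm10800 and Gm10801. This selected 159 nuclei of 5414 day 1 barcodes past the quality limits, of 48987 barcodes at day 1 and of 50433 in both libraries. Their share was 2.94% (exact Clopper-Pearson 95% interval 2.5 to 3.42) of the barcodes past the quality limits, and 4.52% (3.86 to 5.26) of the 3519 that were also under the muscle and repeat limits.

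The study profiled C57BL6 mice by droplet-based single-nucleus RNAseq in 2 libraries, 1 of periosteum with hematoma 1 day after an open, non-stabilized tibial fracture and 1 of hematoma and callus taken 5 days after a musculoskeletal traumatic injury (MTI, a fracture with wide damage to soft tissue). In each, nuclei from the injured tibias of 3 or 4 mice were pooled and sorted with a nucleic acid dye, without a gate on cell type. The labels name no agent and no altered gene for either library. With 1 library per condition there are no biological replicates, so no p-value is given and all intervals are 95% intervals that cover counting error only.

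Stromal cells of the periosteum, the tissue sheath of bone, include skeletal stem/progenitor cells (SSPCs), which carry markers such as Pi16, Ly6a and Cd34. After a fracture SSPCs give rise to injury-induced fibrogenic cells (IIFCs), which make a collagen matrix rich in periostin before they move on to cartilage and bone. Fibroblastic cells of a wound also sense interleukin-1 and interleukin-6 family cytokines and secrete chemokines that draw neutrophils and monocytes.

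The 159 nuclei held 94540 UMIs, with 255 to 2773 and a median of 463 UMIs per nucleus, and a median of 317 genes. Only 66 of them had at least 500 UMIs. The median mitochondrial share was 0.873%. The 43464 barcodes under 200 genes, with a median of 148 UMIs and 6848386 UMIs in all, served as the measure of RNA free in the droplets. Their level is called free RNA below, and whether some of them held shallow nuclei was not tested. A group of 294 immune nuclei, with at least 2 UMIs of the 8 immune genes and more of these than of the stromal genes, had 157462 UMIs and a median of 434.5 UMIs, close to the depth of the stromal nuclei. Levels are UMIs per 1000000 UMIs (CPM), and a gene without a UMI in the stromal nuclei may still have been present at up to 31.7 CPM (3 UMIs, a one-sided limit used for every count of 0). Both libraries shared 33 barcodes, none of which was a stromal nucleus at day 1 (0 of 159).

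The values that chose the nuclei were small. Of the 159 nuclei, 83 held 2 stromal marker UMIs, 29 held 3, and 47 held 4 or more, with a maximum of 15. A UMI from only 1 of the 6 genes was found in 39 nuclei, and from 2 genes in 75. Immune marker UMIs were absent from 119 nuclei and present, in smaller number than the stromal ones, in 40. Col3a1 (type III collagen of early repair matrix) gave 189 UMIs in 96 nuclei, Col1a2 130 UMIs in 87 nuclei and Col1a1 (both chains of type I collagen) 123 UMIs in 79 nuclei. Col5a1, which nucleates collagen fibrils, gave 54 UMIs in 42 nuclei. Pdgfra, the platelet-derived growth factor receptor of mesenchymal cells, gave 26 UMIs in 22 nuclei and Postn (periostin) 17 UMIs in 13 nuclei. These levels were fixed by the choice and describe it.

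How many barcodes could meet the rule depended on depth. Summed over all barcodes, the stromal markers stood at 492 CPM among barcodes under 150 UMIs and at 457.7 CPM (366 to 565) among the 97 with at least 1200 UMIs. The share of barcodes with at least 2 stromal UMIs and more of these than of immune UMIs was 0.208% below 150 UMIs, 1.72% from 250 to 400 UMIs and 17.5% from 1200 UMIs. Over the 6 depth groups the marker level was lowest in these deepest barcodes and highest, at 567.7 CPM (493 to 650), from 700 to 1200 UMIs, while the share that could be chosen was higher in each deeper group. Among the barcodes under 200 genes, 178 of 43464 (0.410%) had at least 2 stromal UMIs and more of these than of immune UMIs.

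Each marker was therefore read in nuclei chosen by the other 5. Col3a1 stood at 1432 CPM (1153 to 1758) in the 103 nuclei chosen without it, against 110.1 CPM in barcodes under 200 genes, a ratio of 13.0 (10.3 to 16.2). The ratio was 11.4 (7.96 to 16.1) for Col5a1 in 147 nuclei, 8.37 (4.05 to 15.6) for Postn in 154 nuclei, and 6.71 (5.22 to 8.50) for Col1a1 in 123 nuclei. It was 6.53 (5.06 to 8.32) for Col1a2 in 114 nuclei and 5.96 (2.91 to 11) for Pdgfra in 146 nuclei. All 6 intervals lay above 1, so each of these genes was higher in nuclei chosen by the others than in free RNA. Col1a1 and Col1a2 stood below their free RNA level in the nuclei that were not chosen (115.3 and 128.8 CPM against 143.0 and 149.5 CPM), and the other 4 above it.

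**Figure D1:**
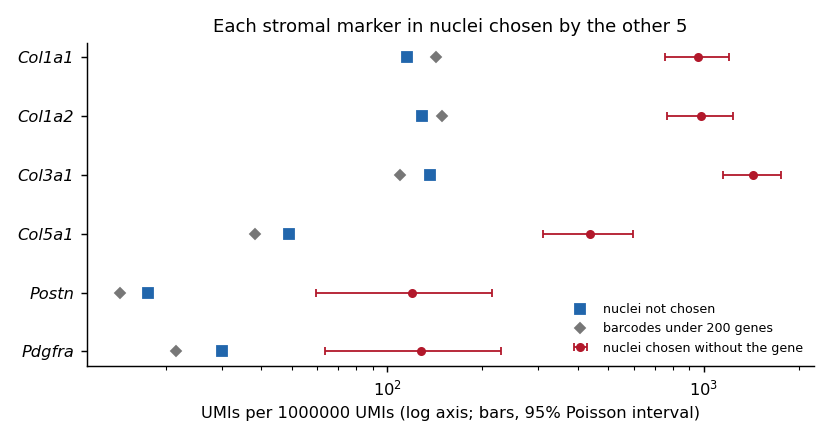
Level of each stromal marker, in UMIs per 1000000 UMIs on a log axis, in nuclei chosen by the other 5 markers (red, with 95% Poisson intervals), in nuclei not chosen (blue) and in barcodes under 200 genes (grey). Every red interval lies to the right of both other values, from 119.8 CPM for Postn to 1432 CPM for Col3a1.

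Across all genes, 1981 outside the rule had at least 10 UMIs observed in the stromal nuclei or expected there from the level in barcodes under 200 genes. Of these, 471 stood at least 2 times higher in the stromal nuclei (23.8%) and 146 at most at 0.5 times (7.37%). The median ratio was 1.35 (0.43 on the log2 scale), and 771 of the genes were counted only through their UMIs in the stromal nuclei. Among the 1210 genes with at least 10 expected UMIs, the median ratio was 0.979 and 79 genes (6.53%) stood at least 2 times higher. A gene with under 10 expected UMIs had to be high in the stromal nuclei to be counted at all, so the counts of list members past this filter are given as a description. Because the nuclei were chosen by genes expressed together with these, the ratios that follow describe the nuclei and are not tests.

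The collagens outside the rule were higher in the stromal nuclei than in both comparison groups. Their 20 genes summed to 268 UMIs and 2835 CPM (2506 to 3195), against 778 CPM in free RNA, a ratio of 3.64 (3.21 to 4.12). Against immune nuclei the ratio was 3.66 (2.94 to 4.57). Of 20 genes, 9 passed the filter on UMIs and all 9 stood at least 2 times higher, against 23.8% of all genes past it. Col6a1, with 1.01 UMIs expected, and Col6a3, with 4.68, passed only through their UMIs in the stromal nuclei. For such genes the filter fixed a ratio above 2. The 268 UMIs came from 91 of the 159 nuclei. Of type VI collagen, the beaded filament network around cells, Col6a1 stood at 169 CPM against 10.7 CPM (ratio 15.9, 8.62 to 27.5). Col6a3 stood at 487 against 49.5 CPM (9.83, 7.06 to 13.4) and Col6a2 at 116 against 14.6 CPM (7.97, 3.85 to 14.9), and Col6a6 gave 3 UMIs. Among the minor fibrillar chains, the ratio was 9.21 (5.63 to 14.4) for Col5a3, 7.73 (4.55 to 12.4) for Col27a1 and 3.08 (2.38 to 3.93) for Col5a2, the member with most UMIs (68). Col12a1 and Col14a1, which decorate fibrils, had ratios of 4.84 (3.03 to 7.39) and 4.08 (2.34 to 6.64). The basement membrane chains Col4a1 and Col4a2 gave 2 and 4 UMIs, with ratios of 0.527 (0.0635 to 1.92) and 1.06 (0.287 to 2.75). Col11a2 and Col18a1 had no UMI. In the 44 nuclei under 0.5% mitochondrial UMIs the list stood at 2.08 times free RNA, Col6a3 at 3.11 and Col5a3 at 1.52 times, and Col6a1 had no UMI.

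The matrix glycoproteins and proteoglycans were a mixed group. Their 32 genes had a summed ratio of 2.18 (1.97 to 2.39) over free RNA. Of 13 genes past the filter on UMIs, 10 stood at least 2 times higher (23.8% over all genes) and none at most at 0.5 times (7.37%). Ltbp2, a microfibril protein of the latent TGF-beta binding family, stood at 444 against 36.2 CPM (ratio 12.3, 8.63 to 17.1), and at a ratio of 7.43 in the nuclei under 0.5% mitochondrial UMIs. Fbn1 (fibrillin-1, the core of microfibrils) had a ratio of 6.42 (4.67 to 8.63), Sparc, a collagen-binding matricellular protein, of 6.30 (3.88 to 9.75), and Fbln2 of 5.97 (3.72 to 9.14). Tnc (tenascin-C, made in wounds) stood at 296 CPM, 5.45 times free RNA (3.57 to 8.01) and 15.5 times immune nuclei (4.80 to 79.9). The ratio of Tnc over free RNA was 2.73 in the 76 nuclei with at least 3 stromal marker UMIs. Fn1 (fibronectin) stood at 518 CPM against 566 CPM in free RNA (ratio 0.916, 0.677 to 1.21), and Thbs1 (thrombospondin-1) at 222 against 385 CPM (0.578, 0.357 to 0.885). In immune nuclei Fn1 stood at 927 CPM. Vcan, a large proteoglycan, was intermediate at 2.15 (1.67 to 2.73). Prelp, Fmod, Ogn, Mfap2, Mfap4, Emilin1 and Fbn2 had no UMI.

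Genes that process and crosslink collagen were as high as the collagens. The list of 32 had a summed ratio of 3.60 (3.19 to 4.05) over free RNA and 3.4 (2.78 to 4.18) over immune nuclei. Past the filter on UMIs, which favours high genes, 9 of 9 stood at least 2 times higher (23.8% over all genes). Adam12, a metalloprotease of mesenchymal cells, gave 89 UMIs in 42 nuclei and 30.3% of the list, at 941 against 138 CPM (6.80, 5.41 to 8.46). Plod2, which hydroxylates lysines of collagen telopeptides, had a ratio of 7.82 (4.60 to 12.6). Loxl2 and Loxl3, which oxidise lysines for crosslinks, had ratios of 11.8 (4.48 to 26.4) from 7 UMIs and 4.75 (2.41 to 8.50) from 12 UMIs. The tissue inhibitor Timp1 stood at 4.92 (2.71 to 8.29), Bmp1, which trims procollagen, at 5.29 (2.48 to 10.0), and its relative Tll1, outside the list, at 6.91 (4.68 to 9.89), or 13.7 in the nuclei under 0.5% mitochondrial UMIs. Mmp2 (gelatinase A) had a ratio of 7.39 (3.44 to 14.2), whereas Mmp13 and Mmp3 gave 2 UMIs each.

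A list named for hyaluronan and UDP-sugar metabolism was put together after the values of its genes had been seen, so its high sum follows from that choice. The 17 genes summed to a ratio of 3.71 (3.25 to 4.21) over free RNA. Past the filter on UMIs, 5 of 6 stood at least 2 times higher (23.8% over all genes). Csgalnact1 gave 24.2% of the UMIs of the list, and neither Csgalnact1 nor Prg4 makes hyaluronan. Tnfaip6 (TSG-6, which crosslinks hyaluronan in inflamed matrix) stood at 254 CPM in the stromal nuclei, 27.9 CPM in free RNA and 12.7 CPM in immune nuclei, a ratio of 9.10 (5.69 to 14.0) over free RNA. Its ratio was 2.76 (0.332 to 10.1), from 2 UMIs, in the nuclei under 0.5% mitochondrial UMIs and 18.9 (10.1 to 32.5) in those from 0.5 to 1%. Uap1 and Ugdh, which make UDP-N-acetylglucosamine and UDP-glucuronic acid, had ratios of 7.55 (5.14 to 10.8) and 6.24 (4.01 to 9.32). Csgalnact1, which starts chondroitin sulfate chains, had 6.85 (5.18 to 8.92) and Prg4 (lubricin) 4.72 (3.31 to 6.56). The hyaluronan synthase Has1 gave 7 UMIs (7.04, 2.73 to 15.3) and Has2 5 UMIs (2.74, 0.876 to 6.57), and the hyaluronidases Hyal1 and Hyal2 none.

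**Figure D2:**
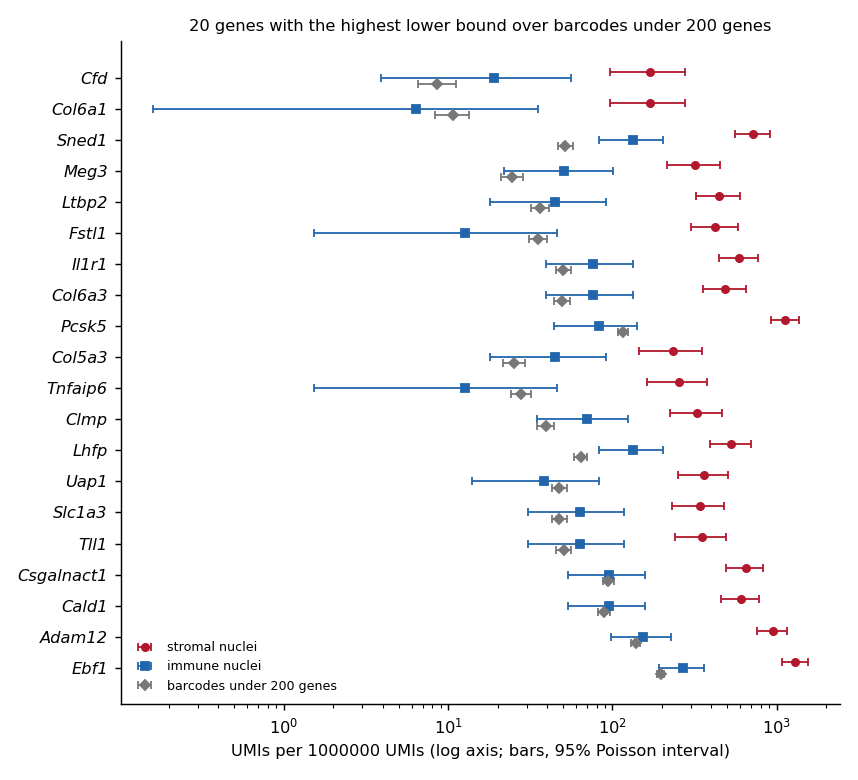
Levels of the 20 genes with the highest lower bound of the ratio over barcodes under 200 genes, in UMIs per 1000000 UMIs on a log axis with 95% Poisson intervals, in 159 stromal nuclei (red), 294 immune nuclei (blue) and barcodes under 200 genes (grey). For every gene the red point lies to the right, from 169 CPM for Cfd and Col6a1 to 1290.5 CPM for Ebf1.

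Ranked by the lower bound of their ratio, the leading gene outside the rule was Sned1, a secreted protein of the interstitial matrix. It gave 68 UMIs in 40 nuclei and stood at 719 CPM, 13.9 times free RNA (10.6 to 18.1) and 5.39 times immune nuclei (3.27 to 9.26). In the 44 nuclei under 0.5% mitochondrial UMIs it stood at 5.95 (2.55 to 11.9) times free RNA. The second, Cfd (the complement protease adipsin), gave 16 UMIs that came from only 2 nuclei, 9 of them from 1, so its ratio of 19.6 (10.6 to 34.6) describes those nuclei. It had no UMI in the nuclei under 0.5% mitochondrial UMIs. Fstl1, a secreted BMP-binding protein, stood at 423 CPM against 35.2 CPM in free RNA (12.0, 8.38 to 16.9) and 12.7 CPM in immune nuclei (33.3, 8.64 to 285). Pcsk5, a proprotein convertase, gave 106 UMIs in 45 nuclei (9.65, 7.80 to 11.8). The membrane proteins Lhfp and Clmp (an adhesion molecule) had ratios of 8.25 (6.03 to 11.1) and 8.38 (5.58 to 12.2), and the glutamate transporter Slc1a3 7.11 (4.78 to 10.2). Cald1 (caldesmon, which binds actin) stood at 6.80 (5.09 to 8.93) and the imprinted noncoding RNA Meg3 at 12.9 (8.46 to 19.2). Meg3 gave 1 UMI in the nuclei under 0.5% mitochondrial UMIs (1.57, 0.0395 to 8.85), and 22 of its 30 UMIs came from the 47 nuclei with 4 or more stromal marker UMIs. Against barcodes past the limits that met neither rule, the ratios were 7.77 for Sned1, 7.93 for Cfd, 7.33 for Fstl1 and 6.69 for Meg3.

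The receptors through which stromal cells sense growth factors and matrix had a summed ratio of 2.14 (1.97 to 2.31) over 33 genes. Of those past the filter on UMIs, 11 of 19 stood at least 2 times higher (23.8% over all genes). Pdgfrb, the partner of Pdgfra, stood at 180 against 25.7 CPM (7.0, 3.99 to 11.5). Tgfbr3 (betaglycan) had a ratio of 5.87 (4.39 to 7.71), the collagen receptor Ddr2 of 5.42 (3.35 to 8.36), and Egfr of 5.19 (3.48 to 7.47). Fgfr1 stood at 3.93 (2.44 to 6.04) and the WNT5A receptors Ror1 and Ror2 at 3.23 (2.13 to 4.71) and 3.25 (1.60 to 5.92). Cd44, the hyaluronan receptor that leukocytes also carry, stood at 666 CPM against 563 CPM in free RNA (1.18, 0.907 to 1.52).

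Of the 21 cytokine receptors, Il1r1, Il1rl1 and Osmr (the oncostatin M receptor) had the highest ratios over free RNA. Il1r1, the signalling receptor for interleukin-1, gave 56 UMIs in 44 nuclei, with at most 4 in 1 nucleus, and made up 32.7% of the list. Its level was 592 CPM in the stromal nuclei, 76.2 CPM in immune nuclei and 50.2 CPM in free RNA, a ratio of 11.8 (8.73 to 15.7) over free RNA and 7.77 (4.12 to 15.9) over immune nuclei. After thinning every nucleus to 250 UMIs, 11.3% (6.85 to 17.3) of the stromal nuclei and 1.71% (0.556 to 3.94) of 293 immune nuclei had an Il1r1 UMI, and without thinning 27.7% and 4.08%. Il1rl1, the receptor for interleukin-33, had a ratio of 8.26 (4.27 to 14.7) from 13 UMIs. Osmr stood at 4.10 (2.48 to 6.44) and its signalling partner Il6st (gp130) at 2.33 (1.19 to 4.12). Il11ra1, the interleukin-11 receptor, gave 7 UMIs (2.86, 1.14 to 6.03). The list of 21 had a summed ratio of 2.00 (1.71 to 2.33). Of its genes past the filter on UMIs, 4 of 4 stood at least 2 times higher, against 23.8% of all genes past it. Il1r1, with 4.75 UMIs expected, passed only through its UMIs in the stromal nuclei, which fixed its ratio above 2. Il6ra, Lifr, Tnfrsf1a, Il17ra and Ifngr1 had 2 to 5 UMIs each and intervals that spanned 1, and Ifngr2, Tnfrsf11b and Tnfrsf12a had none. The interleukin-1 co-receptor Il1rap gave 2 UMIs (0.425, 0.0512 to 1.55).

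The secreted pro-inflammatory factors that the study lists for IIFCs were only in part higher than in free RNA. The 10 genes stood at 1290.5 CPM (1072 to 1541) against 927 CPM (ratio 1.39, 1.15 to 1.66), and at 1.15 times (0.909 to 1.46) the immune nuclei. Of 5 genes past the filter on UMIs, 2 stood at least 2 times higher (23.8% over all genes) and 1 at most at 0.5 times (7.37%). Cxcl5, a neutrophil chemokine of stromal and epithelial cells, gave 27 UMIs in 14 nuclei and stood at 286 CPM, against 51.3 CPM in free RNA (5.57, 3.62 to 8.25) and 57.2 CPM in immune nuclei. Csf1, the growth factor of macrophages, had a ratio of 2.36 (1.31 to 3.94). The monocyte chemokines Ccl2 and Ccl7 stood at 349 and 296 CPM, with ratios of 1.38 (0.949 to 1.95) and 1.32 (0.876 to 1.92), and Ccl2 was as high in immune nuclei (394 CPM). Cxcl2, a neutrophil chemokine that myeloid cells also make, stood at 74.0 against 239 CPM (0.310, 0.124 to 0.640). Lif gave 2 UMIs and Ccl5 none.

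Other secreted or induced inflammatory genes were sparse. The list of 30 had a summed ratio of 1.80 (1.51 to 2.13), with 3 of 5 past the filter on UMIs at least 2 times higher (23.8% over all genes). Il33, a nuclear alarmin, and Cxcl14, a chemokine of fibroblasts, gave 11 UMIs each, with ratios of 7.81 (3.78 to 14.6) and 6.64 (3.23 to 12.3). Cxcl1 gave 6 UMIs (3.99, 1.43 to 8.96), Ptx3 6 UMIs (3.45, 1.24 to 7.72), Cxcl12 5 UMIs (5.03, 1.59 to 12.3) and Icam1 8 UMIs (3.03, 1.29 to 6.10). Il6 gave 1 UMI, and Csf2, Csf3, Lcn2 and Saa3 none, so that their levels could not be read at this depth. The 6 factors that the study lists as anti-inflammatory in IIFCs gave 30 UMIs in all, a ratio of 2.43 (1.63 to 3.49) over free RNA and 1.67 (0.970 to 2.86) over immune nuclei, led by Igf1 with 9 UMIs, Gas6 with 8 and Inhba with 7. None of the 6 passed the filter on UMIs, and in the 44 nuclei under 0.5% mitochondrial UMIs they gave 4 UMIs, a ratio of 1.18 (0.320 to 3.02). The TGF-beta and BMP list of 19 had a ratio of 2.78 (2.27 to 3.37), of which Fstl1 made up 37.0%, and 1.69 (0.997 to 2.67) in the nuclei under 0.5% mitochondrial UMIs. Tgfb2 stood at 4.13 (2.03 to 7.55). The WNT list of 20 gave 19 UMIs (1.13, 0.677 to 1.77).

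The promoters of the inflammatory genes that stood above free RNA were searched for the letters TGANTCA (the AP-1 motif) and an NF-kB motif (GGGA, any base, then TTTCC), on both strands and from 250 bases before to 50 bases after each start site in RefSeq (GRCm38.p6). The search took the 14 genes of the inflammatory and cytokine receptor lists that have an entry and an interval above 1. Cxcl5 had no entry and was not searched, and the hyaluronan synthase Has1 was among the 14. The AP-1 letters were in promoters of 2 of these 14 genes (Osmr and Tnfaip6), against 8.97% of all 27025 genes, and in 7.81% of all 32851 promoters. The NF-kB letters were in 2 of 14 (Csf1 and Cxcl1), against 0.466% of all genes, and in 0.411% of all promoters. Of the 20 leading genes, 17 had an entry, of which 3 held the AP-1 letters and none (0 of 17) the NF-kB letters. A match describes the sequence and is not a binding site. The 250 bases before the start site are shown for the 3 inflammatory genes whose match lies there, each on the strand of its gene, with the match in capitals. The match starts 142 bases before the start site of Tnfaip6 (chr2:52037863-52038112, plus strand), 154 bases before that of Csf1 (chr3:107760470-107760719, minus strand, the reverse complement of the letters) and 71 bases before that of Cxcl1 (chr5:90890995-90891244, plus strand).
Tnfaip6: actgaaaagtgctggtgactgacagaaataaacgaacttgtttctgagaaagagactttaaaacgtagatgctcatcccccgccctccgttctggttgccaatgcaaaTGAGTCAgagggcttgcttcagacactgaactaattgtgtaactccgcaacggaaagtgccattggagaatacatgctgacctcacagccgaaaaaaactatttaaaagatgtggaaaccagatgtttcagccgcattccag
Csf1: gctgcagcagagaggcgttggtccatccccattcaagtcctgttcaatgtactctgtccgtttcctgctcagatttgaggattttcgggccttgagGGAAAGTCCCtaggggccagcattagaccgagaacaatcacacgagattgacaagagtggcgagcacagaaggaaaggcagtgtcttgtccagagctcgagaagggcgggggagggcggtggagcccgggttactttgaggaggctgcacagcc
Cxcl1: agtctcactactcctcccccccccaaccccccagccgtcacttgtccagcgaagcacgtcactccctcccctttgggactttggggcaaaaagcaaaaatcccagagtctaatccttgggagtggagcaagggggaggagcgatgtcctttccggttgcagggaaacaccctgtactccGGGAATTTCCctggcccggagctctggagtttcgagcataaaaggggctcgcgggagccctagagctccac

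In the full set of stromal nuclei, mesenchymal transcription factors were higher by a smaller ratio than the collagens. Their 36 genes summed to 989 UMIs, a ratio of 2.03 (1.90 to 2.16). Of 21 genes past the filter on UMIs, 8 stood at least 2 times higher (23.8% over all genes) and 1 at most at 0.5 times (7.37%). The order of the lists was lost in the 44 nuclei under 0.5% mitochondrial UMIs. There the ratio was 2.08 (1.84 to 2.34) for the transcription factors and 2.08 (1.49 to 2.81) for the collagens. Ebf1, a factor of mesenchymal and B lineages, gave 122 UMIs in 63 nuclei and stood at 1290.5 CPM against 196 CPM (6.58, 5.42 to 7.92). Twist1, a mesenchymal regulator, gave 5 UMIs (12.5, 3.77 to 32.6), and Glis3 72 UMIs (5.23, 4.06 to 6.65). Prrx1, a marker of limb mesenchyme, stood at 3.68 (2.38 to 5.45), Zeb1 at 3.42 (2.68 to 4.31) and Tshz2 at 3.31 (2.77 to 3.93). Runx1 and Runx2, of blood and bone lineages, had ratios of 2.10 (1.54 to 2.81) and 1.76 (1.07 to 2.73). Foxp2 was lower, at 0.25 (0.0680 to 0.642), and Hoxc10, Hoxd9, Klf4, Osr2, Tbx18 and Tbx4 had no UMI.

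Among genes downstream of injury signals, the heat shock list stood above its free RNA level, and the intervals of the regulon, NF-kB feedback, immediate early and hypoxia lists over free RNA spanned 1. The factors whose regulons the study ties to the early IIFC state had a ratio of 1.14 (0.872 to 1.46) over 8 genes, with Nfkb1 highest at 1.83 (1.12 to 2.81), and those of the later state 0.889 (0.458 to 1.56) over 5 genes. The NF-kB feedback genes stood at 0.954 (0.737 to 1.22) over 15 genes, but Sod2, a mitochondrial antioxidant enzyme, at 3.07 (1.45 to 5.75). Against immune nuclei the NF-kB feedback list stood at 0.705 (0.520 to 0.945). Immediate early genes stood at 0.916 (0.743 to 1.12) over 24 genes, with Myc at 3.64 (1.79 to 6.64) and Klf6 at 0.251 (0.0303 to 0.910). Heat shock genes stood at 1.76 (1.44 to 2.12) over 13 genes, of which 4 had intervals above 1 and none below, led by Hsp90aa1 (2.68, 1.71 to 4.03). The heat shock list was also above free RNA in barcodes with 0 stromal and 0 immune UMIs (1.38, 1.27 to 1.49) and with 1 stromal UMI (1.53, 1.27 to 1.83), and stood at 1.30 (1.00 to 1.67) times immune nuclei. Hypoxia and glycolysis genes stood at 0.990 (0.844 to 1.15) over 28 genes, and at 0.801 (0.661 to 0.967) times immune nuclei. The contractile and cytoskeletal genes of myofibroblasts stood at 1.35 (1.21 to 1.51) over 24 genes, with Cald1 high and Tpm1 and Tpm2, which muscle fibres also express, low. Acta2, Tagln, Myl9 and Cnn1, which define myofibroblasts and smooth muscle, had no UMI. Nuclear noncoding RNAs stood at 1.47 (1.43 to 1.5) times free RNA but at 0.805 (0.780 to 0.830) times immune nuclei and 0.764 times the barcodes that met neither rule, with Malat1 giving 85.8% of their UMIs.

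Cell cycle genes gave 49 UMIs in 26 nuclei, of which 5 nuclei held 22 UMIs, a ratio of 2.70 (1.99 to 3.59) over free RNA and 3.02 (1.85 to 5.03) over immune nuclei. Top2a, needed to separate chromosomes, gave 11 UMIs (5.95, 2.90 to 11) and Mki67 7 (3.47, 1.37 to 7.34), while Ccnb1, Ccnb2, Ccna2 and Aurkb had none. In the 65 nuclei with at least 1% mitochondrial UMIs the list stood at 4.22 (2.91 to 5.93) times free RNA, and in the 44 nuclei under 0.5% at 0.802 (0.218 to 2.06) from 4 UMIs. The ratio was 4.73 (3.24 to 6.68) in the 47 nuclei with 4 or more stromal marker UMIs, but 1.41 (0.703 to 2.53) in the 83 with 2 and 1.48 (0.480 to 3.47) in the 29 with 3. The part of mitochondrial content or depth in these differences was not tested. No phase was called.

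**Figure D3:**
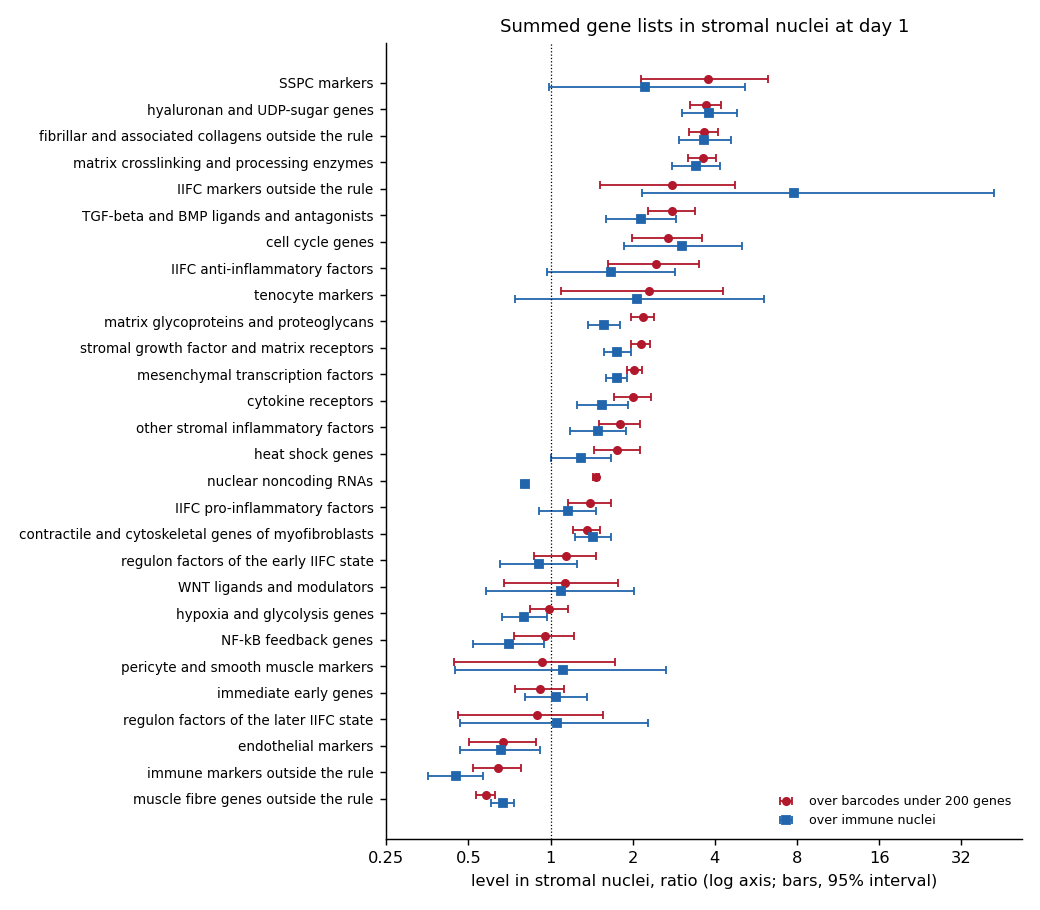
Summed level of each gene list with at least 10 UMIs in the stromal nuclei, as a ratio over barcodes under 200 genes (red) and over immune nuclei (blue), on a log axis with 95% intervals. Collagens, processing enzymes and the hyaluronan and UDP-sugar list lie between 3.4 and 3.82 over both groups, and the immune and muscle fibre lists lie below 1 over both. The hyaluronan and UDP-sugar list was put together after its values had been seen, so its place here follows from that choice.

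The label was checked against markers of the other cell types that the tissue and hematoma could hold. The SSPC markers Pi16, Ly6a, Cd34 and Dpp4 gave 16 UMIs (3.79, 2.14 to 6.25, and 6.61 in the 34 nuclei with at least 500 genes), and the IIFC markers outside the rule, Aspn and Col8a1, 14 UMIs (2.79, 1.51 to 4.75, and 1.39 in those 34 nuclei). These are too few to tell progenitors from fibrogenic cells, and the nuclei are called stromal. Osteoblast markers gave 6 UMIs (0.516, 0.189 to 1.13) with Bglap and Ifitm5 at 0, and chondrocyte markers 2 UMIs, both of Sox9, with Acan, Col2a1 and Fgfr3 at 0. The tenocyte list gave 10 UMIs, all of Thbs4, with Scx, Tnmd, Mkx and Fmod at 0, and went from 2.30 times free RNA to 0.777 without the 5 deepest nuclei. Adipocyte markers stood at 0.860 (0.370 to 1.70) with Pparg at 0. The pericyte and smooth muscle list stood at 0.929 (0.444 to 1.72) from 10 UMIs, led by Rgs5 with 4. Endothelial markers stood at 0.672 (0.501 to 0.883), 78.8% of them Cdh13, with Cdh5 and Eng at 0 (1.13 in nuclei under 0.5% mitochondrial UMIs), and Schwann cell markers at 0.618 (0.282 to 1.18) with Sox10 at 0 (1.25 under the same limit). Osteoclast markers (Ctsk, Acp5 and Oscar) had no UMI, satellite cell genes 2 UMIs (0.342, 0.0412 to 1.24), and erythroid genes 4 UMIs (0.926, 0.251 to 2.39), all of Hba-a2.

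Immune and muscle fibre RNA was present below its level in free RNA. The 20 immune markers outside the rule stood at 1037 CPM against 1618 CPM (0.640, 0.520 to 0.781), led by Arhgap15 with 17 UMIs, and 3 of 6 past the filter on UMIs stood at most at 0.5 times. Mpo and Retnlg, of neutrophils, were at 0. In immune nuclei the list stood at 2299 CPM. The 24 muscle fibre genes stood at 6378 CPM against 11031 CPM (0.578, 0.533 to 0.626), of which Dmd gave 42.3%, and 6 of 15 stood at most at 0.5 times. The lowest single gene was Myh2, the myosin of fast oxidative fibres, with 1 UMI where 43.5 were expected (0.0230, 0.000582 to 0.128). The myosin-binding protein Mybpc1 stood at 0.323 (0.216 to 0.465). The remaining genes of the lowest 8 were Xlr5a, 1700054A03Rik, Kcnip4, Lrp1b, 5830416I19Rik and Grik1, with ratios from 0.169 for Kcnip4 to 0.384 for Grik1. The rule itself limited muscle and immune UMIs, so low values of both lists are no finding, and what remained of them in the stromal barcodes cannot be told apart from free RNA.

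Lists that the rule did not use were read in nuclei with more and fewer stromal marker UMIs. Among barcodes under the muscle and repeat limits, the collagens outside the rule stood at 742 CPM with 0 stromal and 0 immune UMIs, where free RNA had 778 CPM. Just outside the threshold, with 1 stromal UMI and 0 immune UMIs (278 nuclei), they stood at 997 CPM, and just inside it, with 2 (83 nuclei), at 1551 CPM (1192 to 1985). They stood at 2387 CPM with 3 UMIs and at 4486 CPM (3823 to 5229) with 4 or more. Processing enzymes went from 1332 CPM with 1 UMI to 1945 CPM with 2, 3069 CPM with 3 and 4430.5 CPM with 4 or more. With 1, 2, 3 and 4 or more UMIs the cytokine receptors stood at 1229, 1281, 1421 and 2587 CPM, and Il1r1 at 180.5, 419, 398 and 881 CPM. The pro-inflammatory factors stood at 799, 1108, 1421 and 1431 CPM. Immune markers stood at 1435, 1404, 1250.4 and 523 CPM. Muscle fibre genes stood at 10417, 7462, 9208 and 3798 CPM, with more in nuclei with 3 UMIs than in those with 2. The 47 nuclei with 4 or more marker UMIs were also the deepest, with a median of 673 UMIs against 404 for those with 2, and had a higher median mitochondrial share (1.06% against 0.816%). The part of depth in these levels was not tested.

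**Figure D4:**
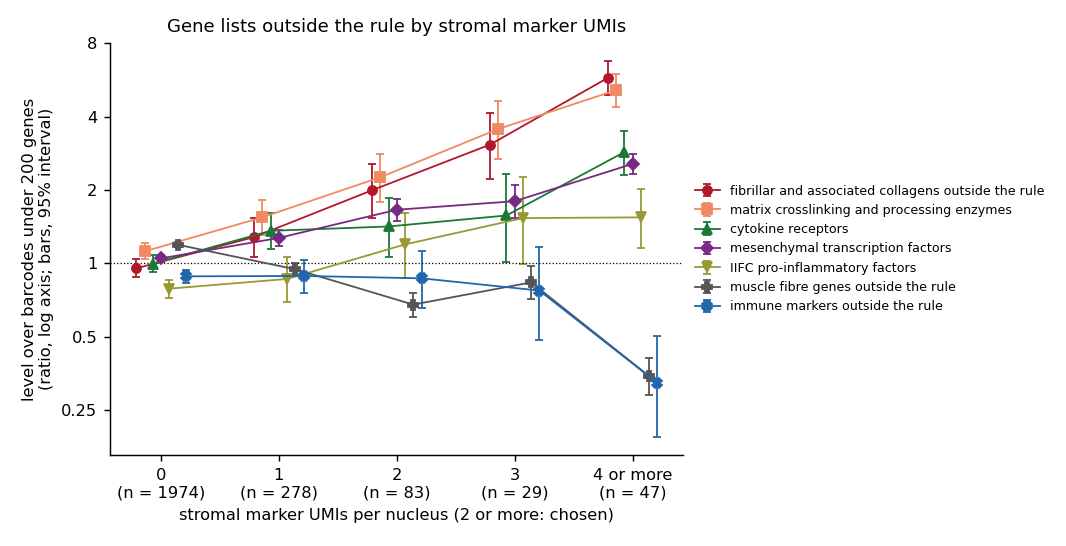
Level of 7 gene lists outside the rule, as a ratio over barcodes under 200 genes on a log axis with 95% intervals, by the number of stromal marker UMIs in the nucleus. The collagen list goes from 0.953 with 0 marker UMIs to 1.99 with 2 and 5.76 with 4 or more, while the immune and muscle fibre lists are at 0.323 and 0.344 with 4 or more.

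Levels within the stromal nuclei are given as a description, since UMIs of 1 nucleus are not independent and Pdgfra was a gene of the rule. The 22 nuclei with a Pdgfra UMI had 2070.0 CPM of Pcsk5, 1202 CPM of Sned1 and 868 CPM of Cxcl5, and the 137 without one had 943, 628 and 176 CPM. The Cxcl5 level in the 22 nuclei came from 13 UMIs. By mitochondrial share, Cxcl5 stood at 577 CPM under 0.5%, 75.4 CPM from 0.5 to 1% and 238 CPM from 1 to 5%, from 15, 2 and 10 UMIs. Il1r1 stood at 654, 603 and 548 CPM in nuclei under 0.5%, from 0.5 to 1% and from 1 to 5% mitochondrial UMIs. The collagens outside the rule, by contrast, stood at 1615, 2714 and 3667 CPM in these 3 groups. The 5 nuclei with the most collagen UMIs outside the rule held 73 of the 268.

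The same rule found 257 nuclei with 1333956 UMIs and a median of 3075 UMIs in the MTI library. Day, injury and depth differ together between the libraries, so the values are given side by side and no difference is assigned to any of them. The 6 marker genes summed to 5701 CPM at day 1 and 9547 CPM after MTI. Postn stood at 179.8 CPM (105 to 288) at day 1 and 1426 CPM (1362 to 1491) at day 5 post-MTI, and Meg3 at 317 and 2179 CPM. The collagens outside the rule stood at 2835 and 9446 CPM. Il1r1 stood at 592 CPM (447 to 769) and 313 CPM (284 to 345), and Sned1 at 719 and 98.95 CPM. Pro-inflammatory factors stood at 1290.5 and 248 CPM in all, with Cxcl5 at 286 and 33.0 CPM and Ccl2 at 349 and 14.2 CPM. At day 1 free RNA of this library held 927 CPM of the pro-inflammatory list and 252 CPM of Ccl2, not far below their levels in the stromal nuclei. Cfd had no UMI after MTI, which allows up to 2.25 CPM by the limit of 3 UMIs.

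**Figure D5:**
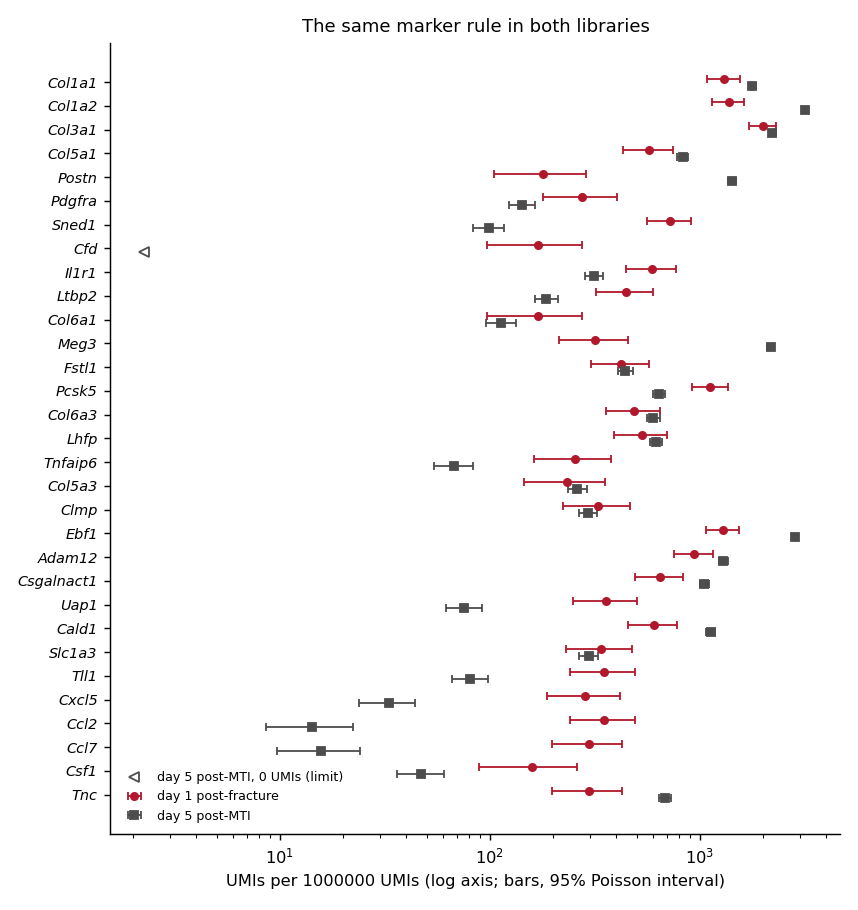
Levels in UMIs per 1000000 UMIs on a log axis, with 95% Poisson intervals, of the 6 marker genes, the 20 leading genes and 5 further stromal genes in nuclei that met the same marker rule at day 1 post-fracture (red, 159 nuclei) and at day 5 post-MTI (grey, 257 nuclei). Postn and Meg3 lie far higher after MTI and Cxcl5, Ccl2 and Ccl7 at day 1, and the open triangle marks Cfd, with 0 UMIs after MTI.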

How the data were processed

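Single-nucleus RNAseq counts of 2 libraries (day 1 post-fracture and day 5 post-MTI) were used. The authors aligned the reads with Cell Ranger 7.0.1 to mm10, with intronic and exonic sequence, and deposited UMI counts, not normalized, for each gene in each barcode. The labels name a human reference, but all gene identifiers are mouse. The day 1 library held 9389014 UMIs (median 157 per barcode) and the MTI library 5899407 UMIs in 1446 barcodes (median 2245.5).

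From these counts, UMIs were summed over the nuclei of each group and divided by the group total (CPM). Sums have exact Poisson, shares Clopper-Pearson and ratios conditional binomial intervals (95%). The ratio intervals were tried on simulated counts of independent UMIs only. UMIs of 1 nucleus are not independent, so the intervals on levels and ratios can be too narrow, which was not tested. Levels of different genes were not compared per length. The genes named singly were the 20 of highest lower bound over barcodes under 200 genes and the 10 over immune nuclei (at least 15 UMIs), the 8 of lowest upper bound (at least 15 expected UMIs), and members of gene lists. The nuclei and all lists were chosen with earlier results of these data known. Promoter sequences come from RefSeq. Doublets were in effect not removed, since Scrublet in scanpy 1.11.5 marked 1 of 5414 barcodes (0.0185%), and 40 stromal nuclei held an immune UMI. Computations used scipy 1.17.1, numpy 2.4.6 and pandas 2.3.3 under Python 3.11.15. Alternatives covered the limits on mitochondrial, muscle, repeat and immune UMIs, on genes and on marker UMIs, the comparison group, the total, the weight of each nucleus and the filter on UMIs. Some members of the lists are not reported here.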

Additional observations from a re-analysis of the deposited data

How the results depend on the processing

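No paired analysis was possible because each condition is 1 library and the labels give no replicate numbers. The values that follow are ratios of summed levels over barcodes under 200 genes unless another group is named, and the cause of each shift was not tested. Of 525 list values over all alternatives, 425 stayed within the counting interval of the reported value and 6 crossed to the other side of 1 where that interval lay off 1. Of 300 values of the 20 leading genes, 296 stayed at 2 or above and 2 crossed 1. All 120 values of the 8 lowest genes stayed below 1. With a mitochondrial limit of 0.5% 44 nuclei remained, and the ratios were collagens 2.08, glycoproteins 1.89, IIFC anti-inflammatory factors 1.18, myofibroblast genes 1.54, TGF-beta and BMP genes 1.69, nuclear RNAs 2.04, cell cycle genes 0.802, tenocyte markers 0, endothelial markers 1.13, Schwann cell markers 1.25, muscle fibre genes 0.858, hyaluronan genes 2.57, Cfd 0, Col6a1 0. Of 280 genes past the filter on UMIs there, 92 (32.9%) stood at least 2 times higher and 41 (14.6%) at most at 0.5 times. With at least 3 stromal UMIs 76 nuclei remained, and the ratios were collagens 4.88, glycoproteins 2.60, processing enzymes 4.62, transcription factors 2.31, growth factor receptors 2.49, cytokine receptors 2.44, nuclear RNAs 1.33, cell cycle genes 3.67, endothelial markers 0.408, Schwann cell markers 0.241, immune markers 0.470, muscle fibre genes 0.504. Without nuclei holding an immune UMI the ratios were nuclear RNAs 1.37, muscle fibre genes 0.523. With a minimum of 300 genes 87 nuclei remained, and the ratios were glycoproteins 2.43, transcription factors 2.27, nuclear RNAs 1.55, immune markers 0.509. With a minimum of 500 genes 34 nuclei remained, and the ratios were glycoproteins 2.44, processing enzymes 4.14, growth factor receptors 2.39, myofibroblast genes 1.68, nuclear RNAs 1.63, cell cycle genes 3.98, SSPC markers 6.61, IIFC markers 1.39, tenocyte markers 5.35, immune markers 0.426, satellite cell genes 0. Of 665 genes past the filter on UMIs there, 271 (40.8%) stood at least 2 times higher and 67 (10.1%) at most at 0.5 times. With muscle UMIs under 2% 105 nuclei remained, and the ratios were collagens 4.90, glycoproteins 2.58, processing enzymes 4.52, transcription factors 2.28, growth factor receptors 2.54, cytokine receptors 2.69, IIFC pro-inflammatory factors 1.70, myofibroblast genes 1.20, nuclear RNAs 1.11, cell cycle genes 3.77, endothelial markers 0.390, muscle fibre genes 0.295, hyaluronan genes 4.30. With no limit on muscle UMIs the ratios were nuclear RNAs 1.52, muscle fibre genes 0.759. With no limit on repeat genes the ratios were collagens 3.13, glycoproteins 1.94, processing enzymes 3.12, transcription factors 1.82, growth factor receptors 1.87, nuclear RNAs 1.31, hyaluronan genes 3.21. With only the 4 collagens of the rule the ratios were nuclear RNAs 1.42, muscle fibre genes 0.529. Against barcodes under 120 genes the ratios were nuclear RNAs 1.66, muscle fibre genes 0.525. Against barcodes past the limits that met neither rule the ratios were processing enzymes 3.04, transcription factors 1.89, growth factor receptors 1.90, IIFC pro-inflammatory factors 1.74, heat shock genes 1.28, myofibroblast genes 1.19, nuclear RNAs 0.764, endothelial markers 0.501, muscle fibre genes 0.514, hyaluronan genes 2.67. Without mitochondrial, muscle, hemoglobin and rule genes in the total the ratio was nuclear RNAs 1.42. With each nucleus given the same weight the ratios were transcription factors 1.86, myofibroblast genes 1.15, nuclear RNAs 1.42, tenocyte markers 0.948, muscle fibre genes 0.517. With a filter of 5 UMIs 1133 of 4517 genes (25.1%) stood at least 2 times higher and 358 (7.93%) at most at 0.5 times. With a filter of 20 UMIs 165 of 686 genes (24.1%) stood at least 2 times higher and 61 (8.89%) at most at 0.5 times. The next 3 alternatives were chosen after seeing the data. With at least 4 stromal UMIs 47 nuclei remained, and the ratios were collagens 5.76, glycoproteins 2.79, processing enzymes 5.13, transcription factors 2.56, growth factor receptors 2.77, cytokine receptors 2.86, myofibroblast genes 1.58, nuclear RNAs 1.24, cell cycle genes 4.73, tenocyte markers 4.79, endothelial markers 0.370, Schwann cell markers 0.179, immune markers 0.323, muscle fibre genes 0.344, hyaluronan genes 4.82. Of 561 genes past the filter on UMIs there, 262 (46.7%) stood at least 2 times higher and 81 (14.4%) at most at 0.5 times. Without the 5 deepest nuclei the ratios were nuclear RNAs 1.38, tenocyte markers 0.777. With a filter of 10 expected UMIs 79 of 1210 genes (6.53%) stood at least 2 times higher and 146 (12.1%) at most at 0.5 times. In nuclei chosen by the other 5 marker genes, in place of all 6, the ratios were Col1a1 6.71, Col1a2 6.53, Col3a1 13.0 and Pdgfra 5.96. The depth of 94540 UMIs limited what could be read of genes with fewer than about 10 UMIs, and without replicates no difference could be set against the spread between animals.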
